A study of Mus musculus with 3 samples.

Results

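Cells carry a set of proteins that bind RNA of unusual form and switch on antiviral signalling, and 10 genes of this set were examined here in every cell class of the mouse retina at 3 ages. They were Ddx58, Ifih1, Dhx58, Mavs, Eif2ak2, Zbp1, Oas1a, Oas2, Oas3 and Oasl2. They were chosen by name from the known RNA-sensing and oligoadenylate synthetase (OAS) genes, and all 10 were present among the 32285 genes of each count matrix.

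The helicases RIG-I (encoded by Ddx58) and MDA5 (encoded by Ifih1) bind double-stranded RNA in the cytosol and signal through MAVS, an adaptor protein on the outer mitochondrial membrane, to produce type I interferon and inflammatory cytokines. PKR (encoded by Eif2ak2) is a kinase that stops translation when it binds double-stranded RNA, ZBP1 binds nucleic acids in the Z conformation and can start cell death, and the OAS enzymes make oligoadenylates, which act as an antiviral signal in the cell. Most of these genes are themselves induced by interferon, so a cell that has received interferon usually carries more of the sensors. Mavs is the member whose transcript is generally not counted among interferon-induced genes.

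Retinas came from C57BL/6JRj mice that were young (3 months), adult (12 months) or old (23 months), which carried no stated allele and received no treatment. At each age 4 retinas from 2 mice were pooled, digested, enriched for cells with CD31, an endothelial surface protein, on magnetic beads, and sequenced as 1 droplet library that tags the 3′ ends of transcripts. Each age is therefore 1 library, the mice within it cannot be separated, and no test between ages was possible. Every interval below is an exact 95% interval that covers counting error only, and age and library cannot be told apart.

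The libraries held 2491 to 3243 barcodes and 16577026 to 19977238 unique molecular identifiers (UMIs), and 1706, 1957 and 1697 cells were kept from the young, adult and old library. Cells were clustered across the 3 libraries and named from marker genes. Although the suspensions had been enriched for CD31, the endothelial class held 440, 424 and 403 of these cells. A second class of 314, 252 and 220 barcodes carried endothelial and pericyte markers at once and is called mixed endothelial-pericyte. Its median was 13640 UMIs per barcode in the young library against 5648 in the endothelial class, and the Scrublet doublet caller marked under 1% of cells in every library, so these barcodes were kept as a class of their own and not counted as endothelial. Müller glia (182, 224 and 214 cells), pericytes (170, 128 and 104), smooth muscle cells (38, 37 and 37), bipolar cells (201, 208 and 168), cones (70, 102 and 71) and rods (164, 311 and 228) also had at least 30 cells at every age. Levels are given as UMIs of a gene per 1000000 UMIs of all genes (CPM), summed over the cells of a class in 1 library.

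The 4 OAS genes lie on mouse chromosome 5 in the GRCm38 build. Oas2 occupies positions 120730333 to 120749853, Oas3 120753098 to 120777661 and Oas1a 120896256 to 120907521, all on the minus strand, and Oasl2 lies apart from them at 114896936 to 114912234 on the plus strand. Ifih1 (62595798 to 62646255, minus strand), Mavs (131234063 to 131248025, plus strand) and Zbp1 (173206612 to 173218923, minus strand) are on chromosome 2. Ddx58 is on chromosome 4 (40203773 to 40239828), Dhx58 on chromosome 11 (100694884 to 100704271) and Eif2ak2 on chromosome 17 (78852564 to 78882573), all on the minus strand. The 10 genes are annotated as protein coding. In the last 500 bases of its transcripts, where this method reads, Oas1a shared 173 of 410 windows of 91 bases with its close copy Oas1g, so reads of these genes could be confused, while the other 9 genes shared none with any gene.

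Interferon acts on many of its target genes through promoter elements built on the letters GAAA, then 2 bases of any kind, then GAAA again, and this motif was searched on both strands. Promoter windows of 300 bases, from 250 bases before the start of the gene to 50 bases after it, were available from RefSeq for 7 of the 10 genes on the GRCm38.p6 build. The windows of Ddx58, Ifih1, Eif2ak2, Oas1a and Oas3 held the motif on 1 of the strands, as did 1131 of 32851 windows of all genes (3.44%), and those of Mavs and Oasl2 did not. Dhx58, Zbp1 and Oas2 were not matched. Windows of 5 genes are printed 5′ to 3′ on the strand of the gene, with each match in capitals. They show where the letters fall in the genes of RIG-I, MDA5, the kinase and 1 OAS enzyme, and their absence in the adaptor. They cover chr4:40239776-40240075 for Ddx58, chr2:62646206-62646505 for Ifih1, chr17:78882523-78882822 for Eif2ak2 and chr5:120907476-120907775 for Oas1a, all on the minus strand, and chr2:131233813-131234112 on the plus strand for Mavs.
Ddx58: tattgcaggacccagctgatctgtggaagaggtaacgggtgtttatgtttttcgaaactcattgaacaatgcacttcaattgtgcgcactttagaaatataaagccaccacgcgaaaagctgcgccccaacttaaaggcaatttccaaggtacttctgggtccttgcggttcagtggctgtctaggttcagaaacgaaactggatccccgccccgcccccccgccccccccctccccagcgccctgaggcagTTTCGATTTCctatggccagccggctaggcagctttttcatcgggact
Ifih1: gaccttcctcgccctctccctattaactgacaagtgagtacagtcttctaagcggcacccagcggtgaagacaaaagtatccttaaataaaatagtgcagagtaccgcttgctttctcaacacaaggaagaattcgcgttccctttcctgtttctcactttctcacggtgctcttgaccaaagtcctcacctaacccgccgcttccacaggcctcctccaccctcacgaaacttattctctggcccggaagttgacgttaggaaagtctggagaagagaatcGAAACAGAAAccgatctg
Eif2ak2: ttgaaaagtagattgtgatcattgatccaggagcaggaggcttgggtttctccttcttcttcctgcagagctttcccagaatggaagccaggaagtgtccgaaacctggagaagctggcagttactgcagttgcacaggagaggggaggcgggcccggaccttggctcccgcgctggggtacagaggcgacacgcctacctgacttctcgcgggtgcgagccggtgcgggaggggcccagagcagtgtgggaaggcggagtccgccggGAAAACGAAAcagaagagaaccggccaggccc
Oas1a: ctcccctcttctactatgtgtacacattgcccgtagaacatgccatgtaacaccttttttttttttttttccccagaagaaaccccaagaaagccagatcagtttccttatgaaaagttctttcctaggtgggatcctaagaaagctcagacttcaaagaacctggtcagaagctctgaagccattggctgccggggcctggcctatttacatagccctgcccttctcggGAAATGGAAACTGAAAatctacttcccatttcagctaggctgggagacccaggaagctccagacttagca
Mavs: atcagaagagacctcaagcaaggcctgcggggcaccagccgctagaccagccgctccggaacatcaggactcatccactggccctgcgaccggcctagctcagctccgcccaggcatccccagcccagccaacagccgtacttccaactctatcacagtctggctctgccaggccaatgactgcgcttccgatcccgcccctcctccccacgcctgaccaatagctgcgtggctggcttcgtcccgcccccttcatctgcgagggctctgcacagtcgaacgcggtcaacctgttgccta
The match in Ddx58 read TTTCGATTTC, the same letters on the opposite strand. Oas1a held overlapping matches, GAAATGGAAA and GAAACTGAAA, and Oas3 held GAAAACGAAA, the same run as in Eif2ak2. A match is a run of letters and was not tested as a binding site.

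Transcripts of the sensors were found mainly in cells of the vessel wall and, for some genes, in Müller glia, while neurons held few counts of any member. Over the kept cells of the 3 libraries, the number of UMIs was 1618 for Ddx58, 2126 for Ifih1, 312 for Dhx58, 412 for Mavs, 1730 for Eif2ak2, 389 for Zbp1, 501 for Oas1a, 329 for Oas2, 3199 for Oasl2 and 7 for Oas3. Oas3 was therefore too sparse to describe by age. For Ddx58 the endothelial class ranged from 56.8 to 61.9 CPM over the 3 ages, above the mixed endothelial-pericyte class at 47.0 to 55.7 CPM, and these ranges did not overlap. For Eif2ak2 the endothelial and mixed classes overlapped, and both stood above Müller glia at 27.1 to 40.1 CPM. Müller glia in turn stood above the remaining 5 classes for this kinase. For Oasl2 Müller glia, at 82.7 to 113 CPM, overlapped the endothelial class, and they did so for Mavs, at 9.54 to 9.70 CPM against 6.50 to 11.2 CPM. For Oas1a and Oas2 the endothelial and mixed classes overlapped each other and stood apart from the other classes with at least 30 cells at every age. For Ifih1 the mixed barcodes overlapped both the endothelial class above and the pericytes below, and Mavs was the 1 member whose middle level was highest in pericytes. The map of levels by class shows these patterns side by side.

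**Figure D1:**
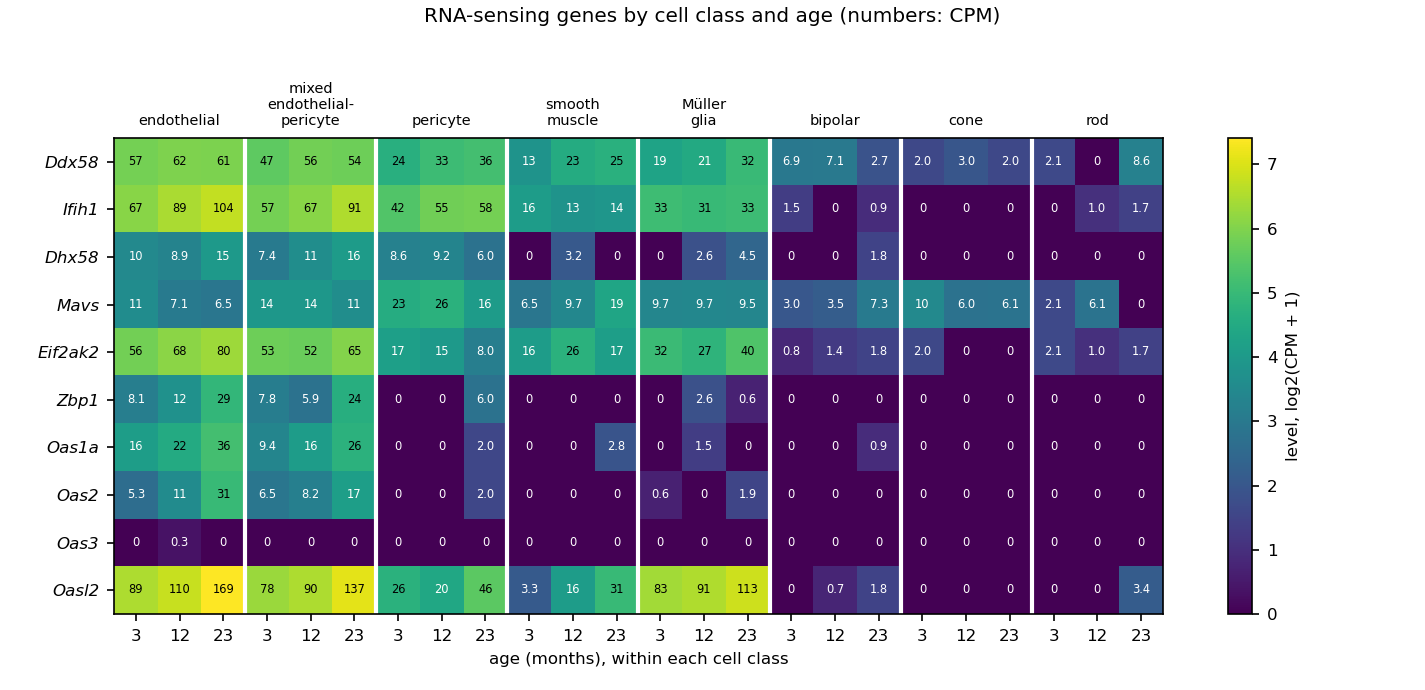
Levels of the 10 genes (rows) in 8 cell classes at the 3 ages (columns), each cell of the map giving the CPM of 1 class in 1 library, with colour on a log2(CPM + 1) scale. Zbp1, Oas1a and Oas2 are coloured mainly in the endothelial and mixed endothelial-pericyte columns, Oasl2 reaches 113 CPM in Müller glia of the old library, and in rods, cones and bipolar cells no gene passes 10.2 CPM, which is the level of Mavs in young cones.

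Among the RIG-I-like helicases of endothelial cells, Ifih1 had a higher old to young ratio than Ddx58, and differences between the genes were not tested. MDA5 transcript Ifih1 stood at 67.0 CPM in the young library (58.4 to 76.6, 216 UMIs), 88.5 CPM in the adult library (78.8 to 99.1, 299 UMIs) and 104 CPM in the old library (94.1 to 115, 385 UMIs). The intervals of the young and old libraries did not overlap, and the old to young ratio was 1.56 (1.31 to 1.85). Ddx58, which encodes RIG-I, stood at 56.8 CPM (48.8 to 65.6, 183 UMIs), 61.9 (53.8 to 70.8, 209 UMIs) and 60.7 (53.0 to 69.1, 224 UMIs). Its 3 intervals overlapped and its old to young ratio was 1.07 (0.875 to 1.31), so a difference of more than 1.31-fold upward lay outside the counting interval. Dhx58 encodes LGP2, a helicase without the signalling domains of the other two, and it modulates both. Its levels were 10.2 CPM (33 UMIs), 8.88 CPM (30 UMIs) and 14.9 CPM (55 UMIs), with an old to young ratio of 1.46 (0.928 to 2.31) that included 1. The ratio passed 1.5 with an interval above 1 under stricter cell limits (1.64, 1.02 to 2.70), with cells classed from their own markers (1.79, 1.05 to 3.12) and with mixed barcodes added (1.79, 1.31 to 2.47), and its interval included 1 after thinning (1.15, 0.516 to 2.56) and without cells carrying other markers (1.62, 0.823 to 3.25). The adaptor Mavs went the other way, with 11.2 CPM (36 UMIs), 7.10 CPM (24 UMIs) and 6.50 CPM (24 UMIs), and its ratio of 0.582 had an interval from 0.332 to 1.00 that just included 1, and with mixed barcodes added it was 0.685 (0.490 to 0.950).

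The kinase and the Z-nucleic acid sensor both had their highest endothelial level in the old library. Eif2ak2 stood at 56.5 CPM (48.5 to 65.3, 182 UMIs) in the young, 68.1 CPM (59.6 to 77.5, 230 UMIs) in the adult library and 79.9 CPM (71.0 to 89.5, 295 UMIs) in the old library. The young and old intervals did not overlap, with a ratio of 1.42 (1.17 to 1.71). Zbp1 stood at 8.06 CPM (5.27 to 11.8, 26 UMIs), 12.4 CPM (8.96 to 16.8, 42 UMIs) and 29.2 CPM (23.99 to 35.3, 108 UMIs). The old library lay above the other two without overlap, at 3.63 times the young level (2.35 to 5.80) and 2.35 times the adult level (1.63 to 3.44).

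Oas1a, Oas2 and Oasl2, the OAS members with enough counts to describe, were highest in old endothelial cells. Oas2 stood at 5.27 CPM (3.07 to 8.44, 17 UMIs), 11.0 CPM (7.71 to 15.1, 37 UMIs) and 30.6 CPM (25.2 to 36.8, 113 UMIs). Its old to young ratio was 5.80 (3.47 to 10.3), or 3.65 (2.27 to 6.11) when cells were classed one by one from their own markers, and the old level was 2.79 times the adult level (1.91 to 4.17). Oas1a, another synthetase of the family, stood at 16.4 CPM (12.3 to 21.5, 53 UMIs), 21.9 CPM (17.2 to 27.5, 74 UMIs) and 36.0 CPM (30.2 to 42.7, 133 UMIs), a ratio of 2.19 (1.58 to 3.07). Its near copy Oas1g had 1, 5 and 12 UMIs in the same cells, and how the counting divided reads between the copies was not tested. Oasl2, which carries ubiquitin-like domains beside its synthetase domain, stood at 89.3 CPM (79.3 to 100.3, 288 UMIs), 110.4 CPM (99.5 to 122, 373 UMIs) and 169 CPM (156 to 183, 625 UMIs), a ratio of 1.89 (1.65 to 2.19). For Oas1a, Oas2 and Oasl2 the interval of the old library lay above that of the adult library, while the adult and young intervals overlapped for each of these genes. Oas3 had 0, 1 and 0 UMIs, and a count of 0 in the old library allows up to 0.812 CPM.

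**Figure D2:**
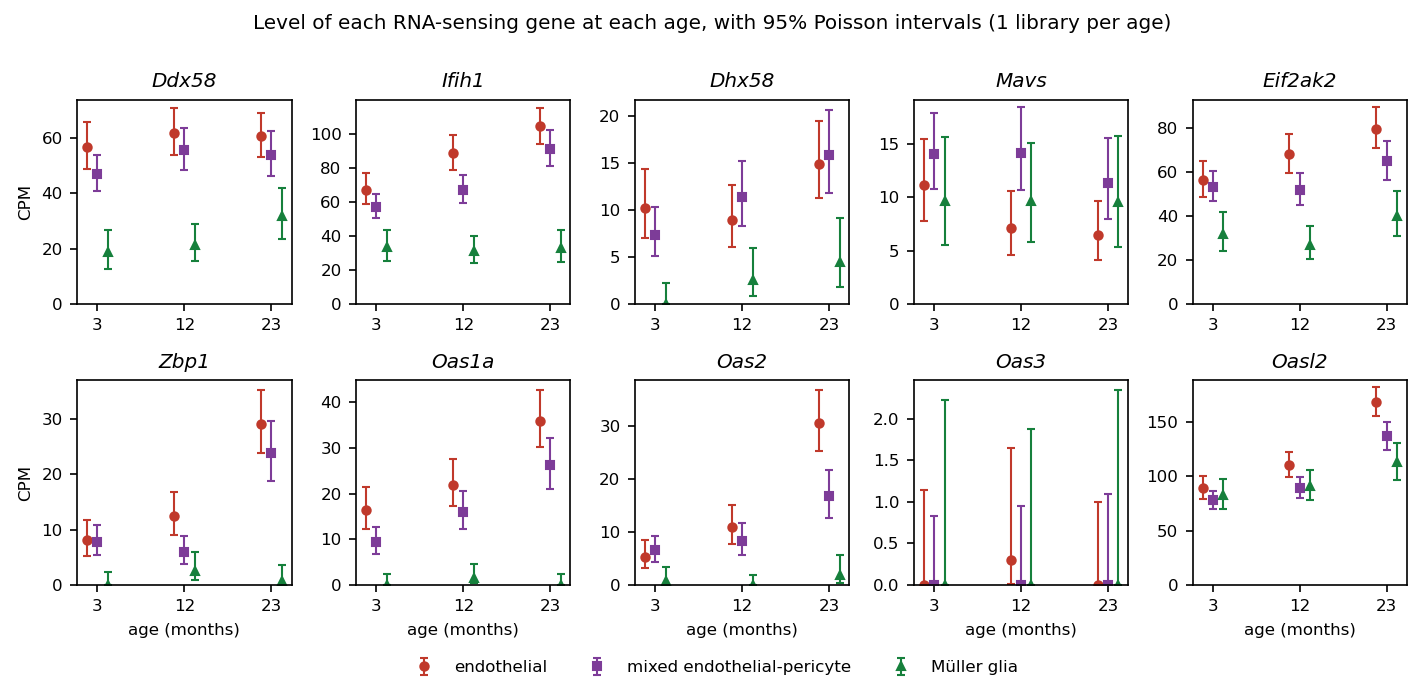
Level of each gene in CPM (vertical axes, separate scale per gene) in the young, adult and old library (horizontal axis), for endothelial cells, mixed endothelial-pericyte barcodes and Müller glia. Points are 1 library each and bars are exact 95% Poisson intervals of the count. Zbp1, Oas1a, Oas2 and Oasl2 of endothelial cells are highest in the old library with intervals above those of the young library, and Ddx58 overlaps across the ages.

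Counted together, 9 of the 10 genes had at least 50 UMIs in endothelial cells over the 3 libraries. Of these, 5 (Ifih1, Zbp1, Oas1a, Oas2 and Oasl2) were at least 1.5-fold higher in the old than in the young library, where 5.72% of 9805 genes with as many UMIs were. With Eif2ak2 added, 6 of 9 had an interval above 1, against 11.6% of all genes. Mavs was the 1 member at or below the inverse of that fold, against 4.22%. The median log2 ratio was 0.64 over the 9 genes and 0.03 over all genes tested. For Ifih1, 1 old cell held 19 of the 385 UMIs, and the interval counts these as independent. Thinned to 2000 UMIs per cell, 5 members kept 50 UMIs and 2 of these reached 1.5-fold. The adult to young comparison, which shares the young library, had 2 of 9 members at 1.5-fold or more (Zbp1 at 1.54 and Oas2 at 2.08), against 4.16% of all genes. Intervals lay above 1 for 3 of 9 members there (Ifih1, Oas2 and Oasl2), against 8.81%, and the median log2 ratio was 0.31. The sum of the 10 genes was 321, 390.5 and 531 CPM, an old to young ratio of 1.66 (1.54 to 1.79), which was 1.56 (1.43 to 1.71) without Oasl2. A cluster of 65, 80 and 92 cells also carried endothelial markers but was left unnamed for its low UMI counts. Its summed ratio was 1.13 (0.820 to 1.56), with Ifih1 at 0.759 (0.372 to 1.55) and Oasl2 at 1.63 (0.836 to 3.32).

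Endothelial cells, unlike the kept cells as a whole, had more UMIs in the old library, with a median of 7615 UMIs per endothelial cell against 5648 in the young and 6042 in the adult library. When each cell was thinned to 2000 UMIs, the old to young ratio of Zbp1 was 4.28 (1.70 to 12.8), of Oas1a 2.76 (1.38 to 5.91), of Oas2 9.27 (2.84 to 47.9) and of Oasl2 1.62 (1.21 to 2.17). For Ifih1 the thinned ratio was 1.30 (0.913 to 1.85) and for Eif2ak2 1.01 (0.661 to 1.53), so their intervals then included 1. Thinning gives every cell the same weight, and it also leaves fewer counts. Marker sums of other classes within the endothelial class moved with age as well. Pericyte markers summed to 1959, 2022 and 1338 CPM, erythroid markers to 561, 202 and 1367 CPM and rod markers to 58.3, 98.9 and 126 CPM. Microglial markers, of cells that can carry many interferon-induced transcripts, were at 40.9, 40.3 and 39.0 CPM, with 4 to 6 of 8 markers detected, Tmem119 at 0 in each library, and C1qa at 0 in the young and the old library. Müller glia markers summed to 1155, 1360 and 1611 CPM. Their list includes Clu, a leading gene of the endothelial cells named arterial below, so this sum is not only RNA of other cells. Granulocyte markers summed to 12.7, 175 and 8.12 CPM, and the old value was Lcn2 alone. With cells that carried markers of another class left out (285, 242 and 200 cells remained), the summed ratio was 1.69 (1.51 to 1.89), Oas2 stood at 4.23 (2.32 to 8.24) and Eif2ak2 at 1.29 (0.983 to 1.70), whose interval then included 1. With the CPM of rods subtracted the summed ratio was 1.64.

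**Figure D3:**
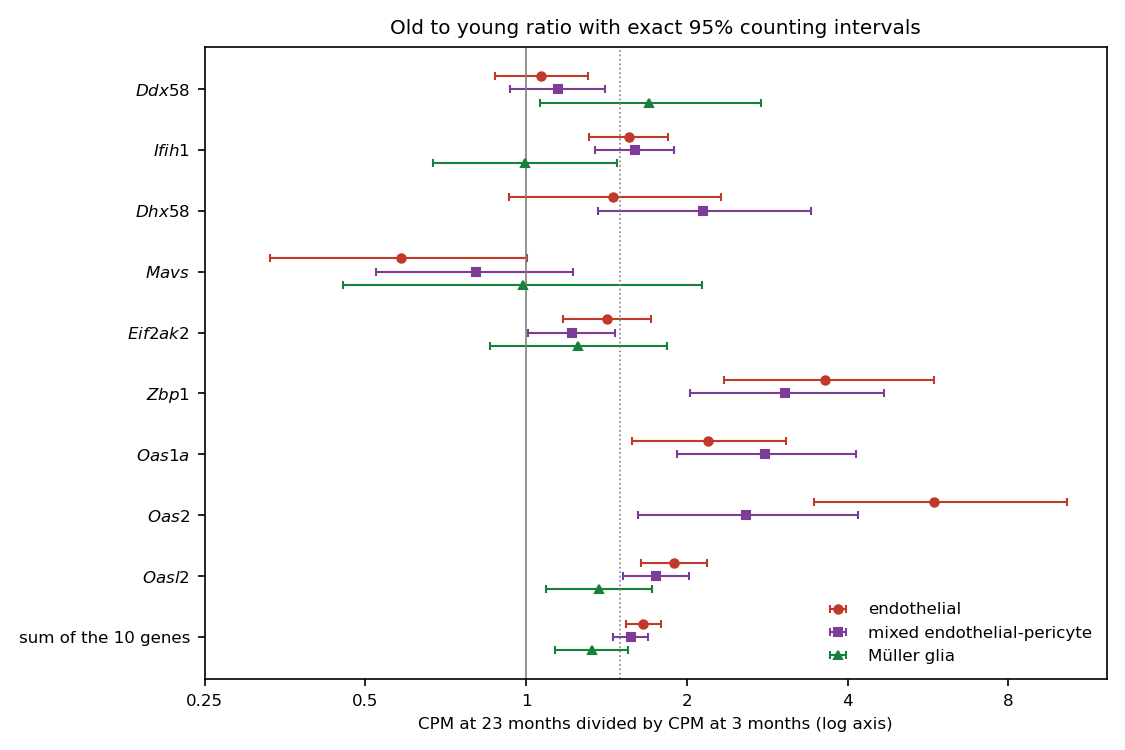
Old to young ratio of the CPM of each gene (horizontal log axis, bars are exact 95% intervals for counting error) in endothelial cells, mixed endothelial-pericyte barcodes and Müller glia, where at least 20 UMIs were counted over both ages and the young count was above 0. The dotted line marks a ratio of 1.5. Zbp1, Oas1a and Oas2 lie farthest right, at 3.63, 2.19 and 5.80 in endothelial cells and 3.05, 2.80 and 2.58 in mixed barcodes, and Mavs of endothelial cells lies left of 1 at 0.582.

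The mixed endothelial-pericyte barcodes gave a second reading from other droplets of the same libraries. Ratios of at least 1.5 were found for 6 of 9 members (Ifih1, Dhx58, Zbp1, Oas1a, Oas2 and Oasl2), against 4.31% of 10565 genes, and the median log2 ratio was 0.81 against 0.02 over all genes. Ifih1 stood at 57.1, 67.0 and 91.1 CPM (old to young 1.60, 1.35 to 1.89), and Dhx58 at 7.36, 11.3 and 15.8 CPM (2.15, 1.36 to 3.42). Zbp1 stood at 7.80, 5.93 and 23.8 CPM (3.05, 2.03 to 4.68), and Oasl2 at 78.2, 89.7 and 137 CPM (1.75, 1.52 to 2.02). Among the synthetases Oas1a stood at 9.36, 15.98 and 26.2 CPM (2.80, 1.92 to 4.15) and Oas2 at 6.46, 8.25 and 16.7 CPM (2.58, 1.62 to 4.19). Thus Zbp1 and Oas2 were higher in the old than in the adult library here too, and Oas1a was already higher in the adult than in the young library (1.71, 1.14 to 2.59). Ddx58, at 47.0, 55.7 and 53.9 CPM, and Mavs, at 14.04, 14.2 and 11.3 CPM, had intervals that included 1. Since the endothelial and mixed classes came from the same mice and the same reactions, they are not independent replicates.

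Endothelial cells were divided further by sub-clustering. A sub-cluster of 284 cells was named arterial from Bmx, Sema3g, Gja4, Efnb2 and Gkn3, another of 122 cells venous from Nr2f2, Slc38a5, Vwf and Il1r1, and the other sub-clusters, of 382, 299 and 180 cells, were pooled as the remaining cells. These were led by genes of other cell types beside their endothelial markers, the 382 cells by S100a8, S100a9 and Lyz2 of myeloid cells, the 299 cells by Cxcl10 and by rod genes such as Pdc and Gngt1, and the 180 cells by pericyte genes such as Vtn, Kcnj8 and Pdgfrb. They are therefore not a clean endothelial reference, and the part of this RNA in the ratios against them was not tested. The venous sub-cluster had a median of 13552 UMIs per cell, against 3774 to 7474 in the other sub-clusters. That is near the 13640 of young mixed endothelial-pericyte barcodes, and whether it holds doublets was not tested. Ifih1 stood higher in arterial than in the remaining cells at each age, with 128 against 50.1 CPM at 3 months, 125 against 79.6 CPM at 12 months and 125 against 89.8 CPM at 23 months. The arterial level of this helicase was thus similar at the 3 ages (old to young 0.975, 0.740 to 1.29), while the remaining cells (1.79, 1.40 to 2.30) and venous cells (2.04, 1.28 to 3.34) were higher in the old library. Arterial cells numbered 80, 88 and 116 at the 3 ages and the remaining cells 324, 289 and 248, so the ratios of the whole class combine the makeup of the class with the levels inside its parts. The sub-clusters pooled as the remaining cells shifted too, from 185 to 104 cells, 70 to 97 and 69 to 47 between the young and the old library, and Rsad2, an interferon-induced gene, was also among the leading genes of the second. Oas2 also stood higher in arterial cells, at 13.5, 22.0 and 54.9 CPM against 3.82, 9.30 and 18.7 CPM in the remaining cells. The arterial to remaining ratio of Oas2 was 3.55 (1.21 to 10.6), 2.37 (1.13 to 4.92) and 2.94 (1.93 to 4.54) at the 3 ages, and Oas2 differed by age inside both sub-classes, at 4.05 (2.001 to 9.27) and 4.89 (2.24 to 12.1) old to young. Eif2ak2 (1.53, 1.07 to 2.17) and Oasl2 (1.56, 1.18 to 2.04) were higher in arterial cells of the young library, and at the other ages their intervals included 1. In venous cells Oas1a of the old library stood at 10.3 CPM (6 UMIs) against 37.3 CPM in the remaining cells, a ratio of 0.277 (0.0985 to 0.632). This ratio was 0.703 (0.214 to 1.82) in the young and 1.02 (0.510 to 1.93) in the adult library. No other member had a venous to remaining interval off 1 at any age. Zbp1 had 1 UMI in the 36 young and 19 UMIs in the 39 old venous cells.

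To see which members followed the interferon state of a cell, endothelial cells of each library were ranked by the summed CPM of 14 other interferon-induced genes and split into 3 equal parts. Oasl2 was 4.35, 4.43 and 5.05 times higher in the top than in the bottom part at the 3 ages. Zbp1 was 5.86 (1.71 to 31.1), 11.2 (3.49 to 57.0) and 13.8 (5.64 to 43.8) times higher, and Oas1a 3.77, 4.08 and 4.66 times. For these members the intervals lay above 1 at each age, as they did for Ifih1 (2.11, 1.94 and 2.17) and Eif2ak2 (1.83, 3.09 and 2.34). Dhx58 ratios were 2.60 (0.968 to 8.13), 3.56 (1.26 to 12.3) and 2.62 (1.23 to 6.07). The share of all genes with an interval above 1 between these parts was not computed. Mavs had ratios of 0.895, 0.747 and 0.971, with intervals that included 1 at each age. Ddx58 ratios were 1.64 (1.12 to 2.44), 1.38 (0.952 to 1.998) and 2.24 (1.55 to 3.28) and lay above 1 in the young and the old library. The ratio of Oas2 was 4.39 (0.910 to 41.8) at 3 months, 1.57 (0.660 to 3.91) at 12 months and 2.43 (1.42 to 4.31) at 23 months. When the limits of the young library were applied to all ages, 33.4%, 41.7% and 64.3% of the endothelial cells fell in the top part and 33.4%, 31.8% and 13.4% in the bottom part. The parts differed little in depth, with medians of 5413 to 6358 UMIs in the young and 7399 to 7929 in the old library.

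**Figure D4:**
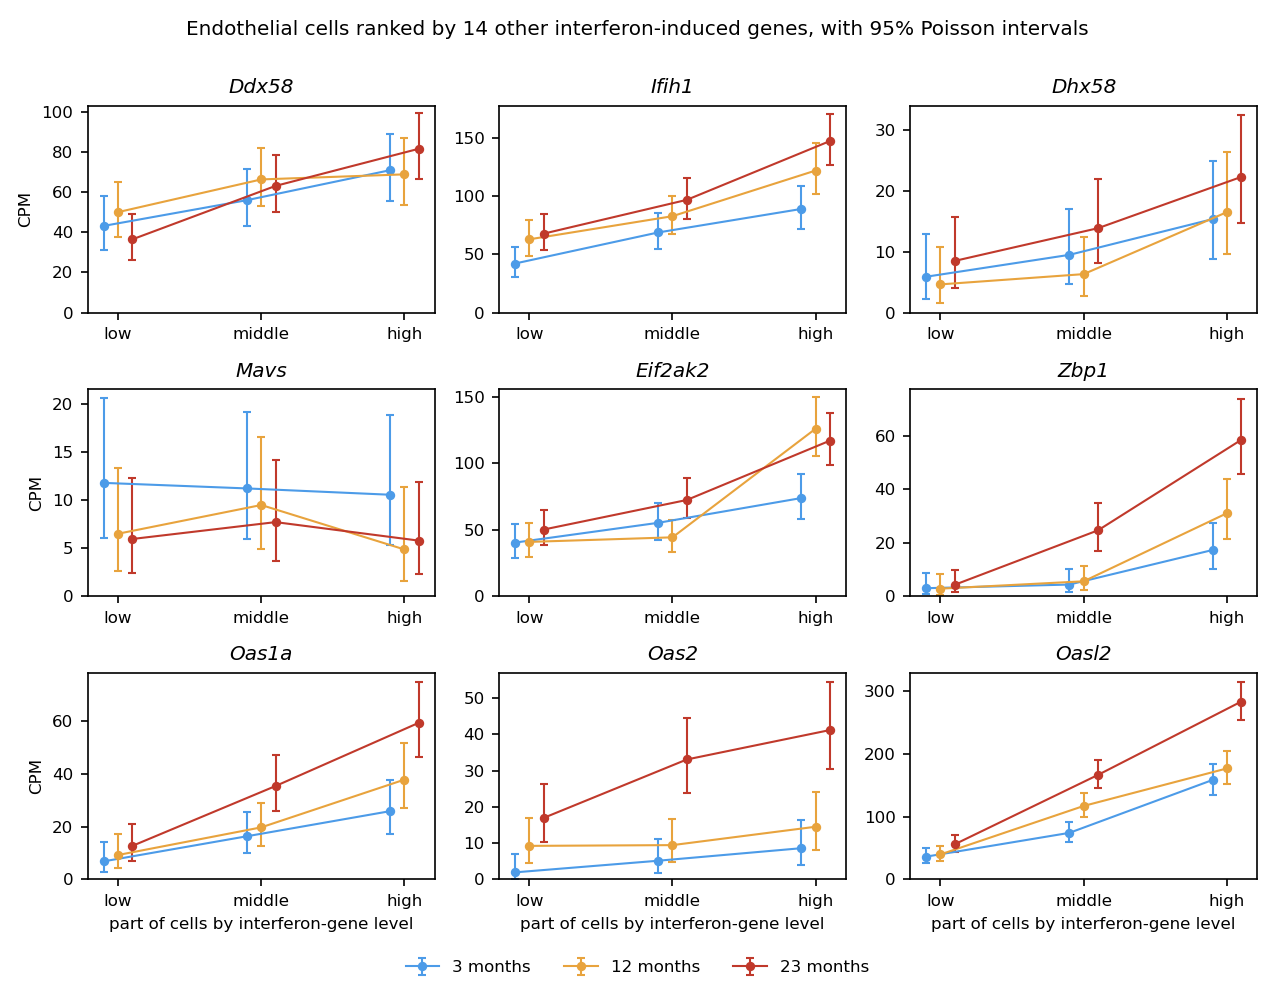
Level of 9 genes in CPM (vertical axes) in endothelial cells of the low, middle and high part by the summed level of 14 other interferon-induced genes (horizontal axis), in the young, adult and old library. Points are 1 part of 1 library with exact 95% Poisson intervals. Oasl2, Zbp1 and Oas1a climb from the low to the high part at each age, and Mavs does not.

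Single cells were also scored for how many members they held. In cells thinned to 2000 UMIs, at least 2 of the 10 genes were detected in 12.9% (9.85 to 16.4), 15.5% (12.1 to 19.4) and 21.8% (17.8 to 26.2) of endothelial cells. Without thinning the shares were 45.2%, 54.5% and 65.8%. In rods, which should hold little of these transcripts and whose median depth was 2295, 2478 and 2153 UMIs, the thinned shares were 0%, 0.463% and 0%. The endothelial share therefore lay well above the rod share at each age. Among single genes the thinned share of cells with a UMI went from 0.703% to 5.51% for Oas2, from 1.41% to 5.26% for Zbp1 and from 2.58% to 7.77% for Oas1a between the young and the old library, and from 15.7% to 25.1% for Oasl2. For Ddx58 it was 9.84% and 8.52%, and for Eif2ak2 10.8% and 10.5%. Unthinned, 58.6% of old endothelial cells held a UMI of Oasl2 and 48.4% one of Ifih1.

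**Figure D5:**
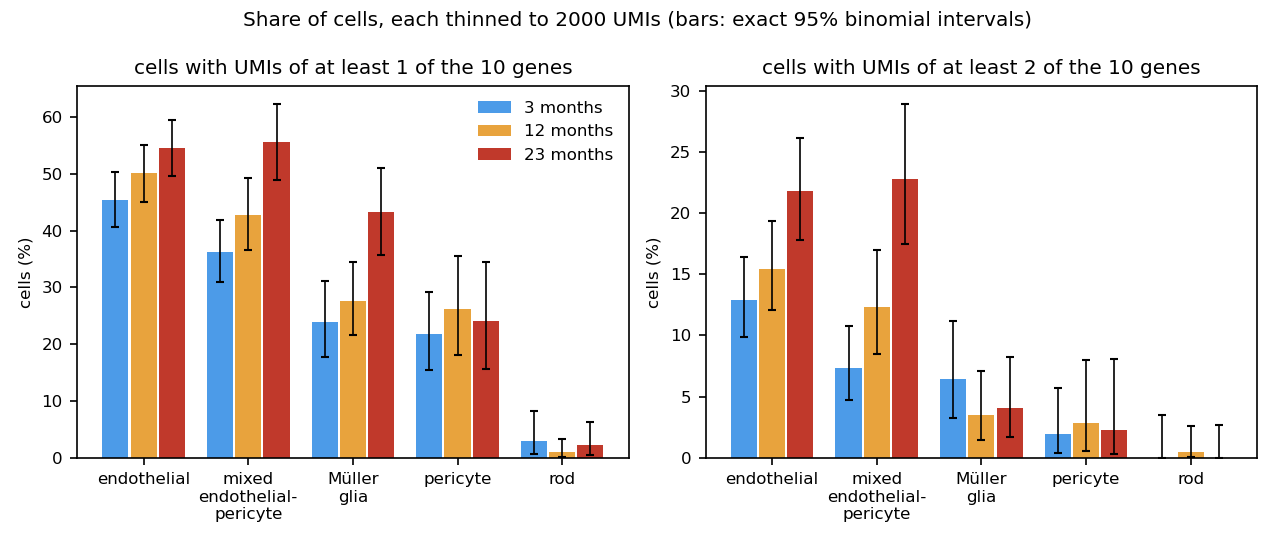
Share of cells (percent, vertical axis) in which at least 1 and at least 2 of the 10 genes were detected after thinning to 2000 UMIs, by class and age, with exact 95% binomial intervals. The share with at least 2 is 12.9%, 15.5% and 21.8% in endothelial cells and 7.32%, 12.3% and 22.8% in mixed endothelial-pericyte barcodes, and it is 0.463% or less in rods.

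Müller glia, the support cells that span the retina, held Ddx58, Ifih1, Mavs, Eif2ak2 and Oasl2 at each age and few or no counts of the other members. Oasl2 stood at 82.7, 91.4 and 113 CPM (137, 179 and 178 UMIs), with an old to young ratio of 1.37 (1.09 to 1.72). Ddx58 stood at 18.7, 21.4 and 31.8 CPM (31, 42 and 50 UMIs), a ratio of 1.70 (1.06 to 2.75). It was the 1 of 5 members with at least 50 UMIs to reach 1.5-fold, against 7.14% of 9031 genes, and Ddx58 and Oasl2 were the 2 of 5 with an interval above 1, against 7.23%. Ifih1, at 33.2, 31.1 and 33.1 CPM (0.996, 0.668 to 1.48), and Eif2ak2, at 32.0, 27.1 and 40.1 CPM (1.252, 0.855 to 1.84), had intervals that included 1. Ddx58 thus had a higher ratio than Ifih1 in these glia and a lower one in endothelial cells, and the difference between the classes was not tested. Mavs stood at 9.66, 9.70 and 9.54 CPM (16, 19 and 15 UMIs), 86.5%, 137% and 147% of its endothelial level. Dhx58 had 0, 5 and 7 UMIs, at least 2.46-fold higher in the old than in the young library against a floor of 3 counts, with a lower 95% limit of 1.52 when the error of both counts is included. Zbp1 (0, 5 and 1 UMIs), Oas1a (0, 3 and 0) and Oas2 (1, 0 and 3) were at or near the floor.

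Oasl2, Eif2ak2 and Ddx58 reached larger shares of their endothelial level in Müller glia than endothelial markers did. Cldn5, an endothelial tight junction gene, reached 0.135%, 0.200% and 0.310% of its endothelial level in Müller glia, and the summed endothelial markers reached 4.87%, 4.46% and 4.59%. Oasl2 reached 92.6%, 82.8% and 66.9% of its endothelial level there, Eif2ak2 56.7%, 39.7% and 50.1% and Ddx58 32.97%, 34.7% and 52.4%. The median depth of Müller glia was 9157, 9223 and 6636 UMIs, so the old library, with the higher CPM of Oasl2, had the lower depth in this class. Rod markers in Müller glia summed to 476, 1434 and 1183 CPM and granulocyte markers to 256, 26.0 and 15.9 CPM. In the young and the old library the granulocyte sum was Lcn2 alone, with S100a8, S100a9, Retnlg and Csf3r at 0. It is therefore not a clear sign of granulocyte RNA there. Without cells that carried markers of another class the summed ratio of the 10 genes was 1.49 (1.20 to 1.85), and after thinning it was 1.30 (0.933 to 1.81), against 1.33 (1.13 to 1.55) with all Müller glia and all UMIs.

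Pericytes, which wrap the capillaries, carried Ifih1 at 41.5, 54.9 and 57.7 CPM and Ddx58 at 24.3, 32.97 and 35.8 CPM. Mavs stood at 22.9, 25.6 and 15.9 CPM (16, 14 and 8 UMIs) against 11.3 to 14.2 CPM in the mixed class and 6.50 to 19.5 CPM in smooth muscle cells, whose range overlapped that of pericytes. Of 3 members with at least 50 UMIs, Oasl2 was at least 1.5-fold higher in the old library (1.78, 0.917 to 3.49), against 9.57% of 5181 genes, and no interval was above 1. Zbp1 had 0, 0 and 3 UMIs, and Oas1a and Oas2 each had 0, 0 and 1. The sum of the 10 genes had an old to young ratio of 1.28 (0.949 to 1.72), which was 0.912 when cells were classed one by one from their own markers, so no direction can be read for pericytes. In smooth muscle cells Oasl2 had 1, 5 and 11 UMIs, a ratio of 9.42 whose interval ran from 1.37 to 406, and the summed members had 17, 28 and 39 UMIs (1.97, 1.09 to 3.70). Endothelial markers in these cells had 10, 22 and 39 UMIs and pericyte markers 2896, 2830 and 1722, and their part in this ratio was not tested.

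Neurons gave few counts. The 10 genes together had 16, 18 and 19 UMIs in bipolar cells, 7, 6 and 4 in cones and 3, 8 and 9 in rods, and Zbp1, Oas2 and Oas3 had none in these classes. Mavs had 4, 5 and 8 UMIs in bipolar cells, 5, 4 and 3 in cones and 1, 6 and 0 in rods. Per UMI of the class this was 91.1%, 84.0% and 94.5% of its endothelial level in cones, 27.3%, 49.7% and 112% in bipolar cells and 18.8%, 86.2% and 0% in rods, and the interval in old cones ran from 18.2% to 311%. Ddx58 had 9, 10 and 3 UMIs in bipolar cells, 1, 2 and 1 in cones and 1, 0 and 5 in rods. Its share of the endothelial level was 12.1% (5.44 to 23.4) and 11.4% (5.39 to 21.4) in young and adult bipolar cells, above Cldn5 at 1.13% and 0.817%, and 14.1% (4.55 to 33.5) in old rods, above Cldn5 at 0.469%. Oasl2 had 0, 0 and 2 UMIs in rods, which is 2.03% (0.245 to 7.36) of its endothelial level in the old library, beside 0.469% (0.256 to 0.787) for Cldn5, so its counts in rods could not be told from this background at this depth.

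In endothelial cells, genes of the wider pathways around the sensors reached 1.5-fold at about the share of all genes, 5.72%. These lists are too short to be told apart from that share. Of 20 genes of RIG-I and MDA5 signalling with at least 50 UMIs, Irf7, a transcription factor that drives interferon genes and is itself interferon-induced, was the 1 at 1.5-fold or more (2.96, 2.64 to 3.33). Next was Traf3 at 1.19, and the lowest were Rnf125 at 0.814 (0.674 to 0.982), a ubiquitin ligase that limits RIG-I, and Tbk1, the kinase that acts on interferon regulatory factors, at 0.888. None of 11 genes around PKR reached 1.5-fold, with Prkra at 1.16 and Atf4 at 1.13 the highest and Eif2ak3 at 0.812 and Tarbp2 at 0.836 the lowest. The chaperone Dnajc3, which restrains PKR, was the 1 of these with an interval above 1 (1.13, 1.002 to 1.27). Among 4 genes downstream of ZBP1 none did, with Mlkl, the pore-forming effector of necroptosis, at 1.06, Ripk1 at 0.948, Casp8 at 0.919 and Fadd at 0.676. Ripk3, the partner of ZBP1, had 3, 4 and 3 UMIs. Of genes that act around the OAS products, Abce1 stood at 0.945 and Pde12, which degrades oligoadenylates, at 0.885. Of the endosomal Toll-like receptor pathway, Myd88 stood at 1.41, Unc93b1 at 1.40 and Tlr3 at 0.898, and Tlr7 and Tlr8 had no UMI in these cells. The editing enzyme Adar, which marks self RNA so that MDA5 ignores it, had a ratio of 1.245 (0.995 to 1.56). Samhd1, which degrades nucleotides and RNA, stood at 1.22 (1.03 to 1.44), and the RNA decay factor Ttc37 at 0.660 (0.467 to 0.929).

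Other interferon-induced genes reached 1.5-fold more often than the 5.72% of all genes. Of the 14 reference genes, Irf7 again included, 12 were at least 1.5-fold higher in old than in young endothelial cells and all 14 intervals lay above 1, from 4.30 for Ifi27l2a to 1.28 for Irf9, with a median log2 ratio of 0.83. None of the 14 reached 1.5-fold in the adult library. Of the remaining OAS genes, Oasl1 had a ratio of 1.80 (1.27 to 2.57) and Oas1c 1.31. Genes of the response to tissue digestion were split, with none of 12 at 1.5-fold or more, 5 intervals above 1 and 4 below. Atf3 stood highest at 1.30 and Hspa1b (0.311), Fosb (0.512) and Hspa1a (0.608) lowest, and the median log2 ratio was 0.09. In Müller glia 3 of 12 reference interferon genes reached 1.5-fold, Rsad2 (2.32, 1.42 to 3.88) and Irf7 (1.61, 0.807 to 3.33) among them, against 7.14% of all genes.

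Likeness of other genes to each member was the Pearson correlation of log2(CPM + 10) over 28 sums of a class and an age, among 11588 genes, and these points share libraries, so it is given as a description. Ddx58 was most like Parp14 (0.953) and Ifi35 (0.946), Eif2ak2 like Id3 (0.949) and Ifi35 (0.937), and Oasl2 like Xaf1 (0.940) and Isg15 (0.935). Oas2 was most like Oasl1 (0.954) and Oas1a (0.932), and Oas1a like Oasl1 (0.941) and Gcnt1 (0.937). Zbp1 was most like Phf11b (0.961), H2-Q7 (0.957) and H2-Q6 (0.951). Dhx58 was most like Lgals9 (0.941) and Helz2 (0.915). Ifih1 was most like Plscr4 (0.971) and Pir (0.960). Mavs had no close match, its highest being Gstt2 at 0.806.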

How the data were processed

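Single-cell 3′ RNA sequencing was done on 3 libraries, 1 per age. The authors aligned and counted the reads with Cell Ranger 6.1.2 on mm10 and deposited raw UMI counts per gene and barcode. Cells with 500 to 6000 detected genes and 1 to 20% mitochondrial UMIs were kept, and barcodes marked by Scrublet (scanpy 1.11.5) were removed, 7, 17 and 16 in the young, adult and old library, which is too few to count doublets as removed. Libraries shared 0 to 3 barcodes. Clustering used Seurat 5.3.0 (R 4.3.3) with 2000 features, none of them a listed gene, 30 components and a resolution of 0.5. A cluster was named from 3 markers detected in at least 20% of its cells, and called mixed when 2 or more classes each had 50% of their markers there, except that pericyte with smooth muscle and Müller glia with astrocyte markers, which these cells share, took the name with the larger share. A cluster was left unnamed when its median UMIs fell under 33.3% of a library median and none of its leading genes was a marker of its class. The rule for the endothelial sub-classes was chosen after the sub-clusters were seen.

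UMIs were summed per class and library and divided by all UMIs of the class. Levels carry exact Poisson, ratios exact conditional and shares exact binomial 95% intervals (scipy 1.17.1). With 1 library per age no test was made, and a call is a ratio of 1.5 or more among genes with at least 50 UMIs in the class. A count of 0 allows 3 counts. Genes outside the 10 were named as the highest 2 and lowest 2 ratios of each list, or by likeness; Dnajc3, Ripk3, Tlr7, Tlr8 and Oas1g were named after their values were seen. Some listed genes are not reported here. Members and lists were chosen with earlier results of these data known. The code was tested on simulated counts. Gene positions are from GENCODE M21 on GRCm38 and promoters from RefSeq.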

Additional observations from a re-analysis of the deposited data

Results flagged for a closer look

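A small class of barcodes with endothelial and erythroid markers at once (22, 24 and 20 in the young, adult and old library) entered no comparison. It held 0, 2 and 9 UMIs of Zbp1, which is at least 3.55-fold higher in the old than in the young library against a floor of 3 counts, with a lower 95% limit of 2.33 when the error of both counts is included. In the same barcodes Oasl2 had 16, 27 and 35 UMIs, or 32.7, 51.8 and 84.6 CPM, an old to young ratio of 2.58 (1.39 to 5.002). Both values come from 1 library per age and were not tested.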

How the results depend on the processing

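The summed endothelial ratio of old to young, 1.66, was 1.44 (1.23 to 1.69) when each cell was thinned to 2000 UMIs and 1.58 to 1.69 under the other alternatives, and the adult to young ratio of 1.22 ranged from 1.18 to 1.23. The pericyte ratio of 1.28 was 0.912 when cells were classed one by one from their own markers, and the Müller ratio of 1.33 ranged from 1.26 to 1.49, with an interval that included 1 after thinning (1.30, 0.933 to 1.81). The count of 5 members at 1.5-fold or more was 2 after thinning, where 5 instead of 9 members still had 50 UMIs, 3 at a fold of 2, 7 at a lower fold, and 5 or 6 under the other alternatives. Without thinning, 45.2%, 54.5% and 65.8% of young, adult and old endothelial cells held at least 2 members, against 12.9%, 15.5% and 21.8% with it. Thinned, Ddx58 stood at 0.851, and with rod CPM subtracted at 0.953. Counting the mixed barcodes as endothelial, for the member count and single members, was chosen after seeing the data. No paired analysis was possible because each age had 1 library, all numbered replicate 1. Counts of Oas3, and of every member in neurons, were too few to compare by age. In bipolar cells the upper limit for Oasl2 (young, 0 UMIs) was 3.17% of the endothelial level. For Ifih1 (adult, 0 UMIs) it was 2.96%. The difference between mice of 1 age cannot be separated from counting error.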

Other observations

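Immune cells were too few for a comparison by age but held some members at high levels. B cells (11, 77 and 57 in the young, adult and old library) had 1, 8 and 23 UMIs of Zbp1, or 16.2, 25.3 and 93.4 CPM, and 5, 21 and 13 UMIs of Ddx58, or 80.8, 66.5 and 52.8 CPM. Oas1a and Oas2 were detected in B cells of the old library alone, with 4 and 6 UMIs. A mixed cluster with T or NK cell and microglial markers (9, 28 and 14 cells) held 1, 7 and 7 UMIs of Dhx58, or 14.2, 30.8 and 62.6 CPM. It also held 4 of the 7 UMIs of Oas3 found in all kept cells. Oas1a had 0, 7 and 5 UMIs in this cluster, or 30.8 and 44.7 CPM in the adult and old library. The unnamed cluster with endothelial markers and low UMI counts held Oas2 at 28.0, 23.3 and 55.2 CPM.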
